A study of Apis mellifera with 6 samples.

Results

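Odorant-binding proteins (OBPs, genes named Obp) and chemosensory proteins (CSPs) of the honey bee (Apis mellifera) midgut were followed in bees fed tunicamycin and in bees fed its solvent. The members were the rows whose gene name starts with Obp or CSP and a number and whose mean over all 6 samples was at least 100 normalized reads. This left 6 genes, CSP3, Obp9, CSP2, Obp12, Obp10 and Obp11, out of 12 rows of these families and 10013 genes in all. They were chosen by their mean level over both groups, so the levels below are a description. The difference between the groups played no part in the choice. The mean of Obp11, the lowest member, was 105 normalized reads, and the highest of the rows left out, CSP4, was at 49.2.

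The tunicamycin group held 3 samples (replicates 2, 3 and 4) of midgut from bees that took 24 µM tunicamycin, dissolved with 0.5% dimethyl sulfoxide (DMSO) in sugar solution, for 24 hours, and the control group held 3 samples (replicates 1, 2 and 3) from bees that took the solution with 0.5% DMSO for the same time. Strain, caste, age, colony and the number of bees behind a sample are not given in the labels used here. Tunicamycin blocks N-glycosylation in the endoplasmic reticulum (ER), so misfolded proteins build up there, and the study asks which midgut genes respond. Each deposited table holds a control and a tunicamycin sample: control 1 with tunicamycin 2, control 2 with tunicamycin 3, and control 3 with tunicamycin 4.

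OBPs and CSPs are small soluble proteins that are made in the ER, secreted, and held in shape by disulfide bonds between conserved cysteines. In insect antennae they carry hydrophobic odorants and pheromones through the fluid around the sensory neurons. Many members are also made outside the sensory organs, where most of their ligands are unknown. Binding proteins need membrane receptors to give an odour response, and in insects these include the odorant receptors (Or) and gustatory receptors (Gr).

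The samples gave between 22763496 and 25025084 recovered reads in tunicamycin and between 23305215 and 26278751 in controls. Hsc70-3, the ER chaperone BiP that responds to misfolded protein, was at 211942, 267564 and 317129 normalized reads in tunicamycin samples 2, 3 and 4, against 68417, 35140.1 and 25372 in controls 1, 2 and 3, so each tunicamycin sample was above each control. Control 1 was the highest control for this gene. Of the digestive enzyme markers, 3 of 8 were measured by name, and they summed to between 701920 and 1302930 normalized reads in tunicamycin and between 1103657 and 1592447 in controls, which goes with the midgut label. None of the 6 olfactory neuron markers looked for, which include the receptors Or2 and Or1, matched a row by name.

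None of the 6 members differed between tunicamycin and control at a Benjamini-Hochberg adjusted p under 0.05 in limma. The same fit called 113 of 10013 genes, which is 1.13%. The count among the members was also 0 in edgeR, which called 0.939% of all genes, and in DESeq2, which called 5.51% of those it tested. At an unadjusted p under 0.05 it was 0 of 6 in limma and in edgeR, where limma had 15.5% of all genes. In DESeq2, which had 15.9%, it was 2 of 6. Among the members the lowest DESeq2 adjusted p values were those of Obp12 (0.218, log2 difference -1.04) and CSP3 (0.230, log2 difference 0.54). In each of the 6 the values of the groups overlapped, while the groups did not overlap in 21.8% of all genes. The fitted differences were positive for CSP3, Obp9 and CSP2 and negative for Obp12, Obp10 and Obp11. Their median on the log2 scale was 0.10, against 0.0014 over all genes, and they ran between -0.79 and 0.54.

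**Figure D1:**
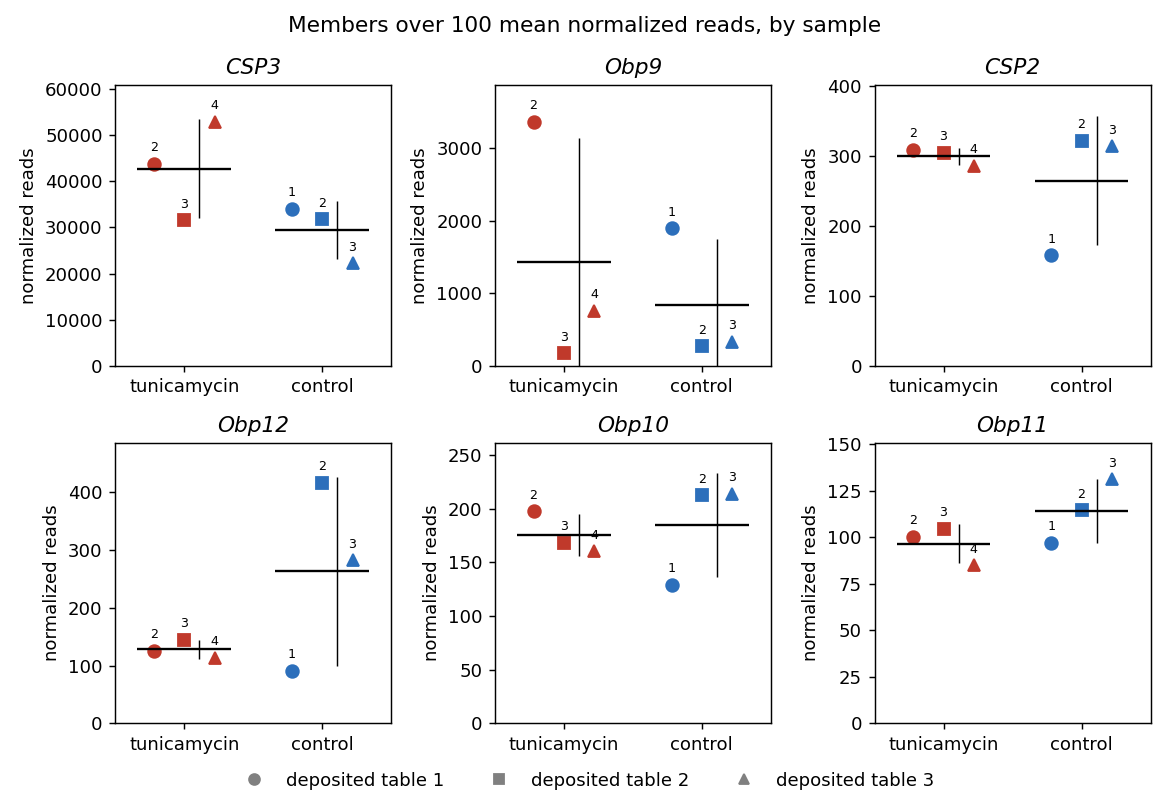
Normalized reads (y axis, from 0, a scale of its own in each panel) of the 6 members in tunicamycin (red, left) and control (blue, right) samples; small numbers are replicates, marker shapes the deposited table, black lines the group mean with 1 SD (n = 3), with the bar of Obp9 ending at 0. Obp9 is highest in tunicamycin 2 and control 1, and control 1 is the lowest sample for CSP2, Obp12 and Obp10.

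CSP3, also known as ASP3c, binds fatty acids and their methyl esters, among them components of the brood pheromone. It had 43825, 31549 and 52980.4 normalized reads in tunicamycin samples 2, 3 and 4, against 34051, 31810.4 and 22229 in controls 1, 2 and 3. Tunicamycin samples 2 and 4 lay above all controls, tunicamycin 3 lay below controls 1 and 2, and the groups overlapped. The means were 42785 ± 10754 in tunicamycin and 29363 ± 6279 in controls (SD, n = 3 each). The log2 difference was 0.54, with an SE of 0.26 and a 95% interval between -0.075 and 1.14 (limma adjusted p = 0.378). Between the samples of a deposited table it was 0.36 for tunicamycin 2 over control 1, -0.012 for tunicamycin 3 over control 2 and 1.25 for tunicamycin 4 over control 3.

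CSP3 reads made up between 0.119% and 0.233% of all recovered reads in tunicamycin samples and between 0.0922% and 0.146% in controls. Levels are given here in reads and not per length, so no order of abundance between genes is drawn from them. In bulk tissue, more cells of a type and more RNA per cell cannot be told apart. The 9 genes of the cuticle and trachea list summed to between 2031 and 3669 normalized reads in tunicamycin. In controls the sum lay between 1403 and 1895. The highest sum was in tunicamycin 4, where CSP3 was also highest, but the other samples did not keep the order of CSP3. From control 1 to 2 to 3 the sum rose (1403, 1661 and 1895) while CSP3 fell. Tunicamycin 3 had a higher sum than tunicamycin 2 (2221 against 2031) and a lower CSP3 value. In that list 0 genes passed in limma, 2 had an unadjusted p under 0.05, and the median log2 difference was 0.41. No gene of it was at 0 in any sample, and CPF2, a cuticular protein, took most of the sum. Its part in the values of CSP3 was not tested.

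CSP2, the other chemosensory protein among the members, had 308, 304 and 286 normalized reads in tunicamycin samples 2, 3 and 4, against 158, 321 and 314 in controls 1, 2 and 3. Control 1 stood below the other 5 samples, which lay close together. The group means were 299.5 ± 12.2 in tunicamycin and 264 ± 92.1 in controls (SD, n = 3 each; log2 difference 0.25, SE 0.28; limma adjusted p = 0.700). Without control 1 the log2 difference was -0.084, with the sign turned.

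Obp9 varied most among the members. It had 3367, 171 and 761 normalized reads in tunicamycin samples 2, 3 and 4, against 1896, 271 and 333 in controls 1, 2 and 3. The high samples, tunicamycin 2 and control 1, came from different groups but from the same deposited table, and the highest sample held 19.7 times the reads of the lowest. The means were 1433 ± 1701 in tunicamycin and 833 ± 921 in controls (SD, n = 3 each). The log2 difference of 0.45 had an SE of 1.13 and a 95% interval between -2.20 and 3.11 (limma adjusted p = 0.886). Without tunicamycin 2 it was -0.62, and without control 2 it was -0.064.

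Control 1 held 6.26 times the mean Obp9 value of controls 2 and 3, and tunicamycin 2 held 7.21 times that of tunicamycin samples 3 and 4. Among the 7435 genes with a mean of at least 100 normalized reads, 3 had both samples of the first table at least 2-fold above each of the other 4 samples, and Obp9 was 1 of them. The others were LOC412162, at 791, 29.6 and 3.77 normalized reads in tunicamycin samples 2, 3 and 4 and 739, 0.931 and 0 in controls 1, 2 and 3, and LOC107964776. The same count was 6 for the second table and 0 for the third. This pattern was looked for after the values of Obp9 were seen. The labels do not say what the samples of a table share.

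Obp12 had 125, 145 and 113 normalized reads in tunicamycin samples 2, 3 and 4, against 91.0, 416 and 282 in controls 1, 2 and 3. Controls 2 and 3 stood above all tunicamycin samples, and control 1 stood below them, so the groups overlapped. The group means were 128 ± 15.97 in tunicamycin and 263 ± 163 in controls (SD, n = 3 each). The log2 difference was -0.79 (SE 0.51; limma adjusted p = 0.507; 95% interval between -1.98 and 0.40). Single controls moved this value in both directions. Without control 1 the log2 difference was -1.42 with a limma adjusted p of 0.0389, which is past the threshold, and without control 2 it was -0.33 (adjusted p = 0.798). Without both samples of the first table it was -1.41 (limma adjusted p = 0.0905), not past the threshold. Over the 17 alternatives the adjusted p of Obp12 ran from 0.0389 to 0.798. Within the tables, Obp12 was 1.38 times as high in tunicamycin 2 as in control 1, 0.348 times in tunicamycin 3 against control 2, and 0.402 times in tunicamycin 4 against control 3.

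Obp10 and Obp11 lie next to each other in the reference assembly Amel_HAv3.1. Obp10 had 197, 168 and 160.3 normalized reads in tunicamycin samples 2, 3 and 4, against 129, 212 and 214 in controls 1, 2 and 3. As for CSP2 and Obp12, control 1 was its lowest sample, at 0.608 times the mean of controls 2 and 3. The log2 difference was -0.046 (SE 0.23; limma adjusted p = 0.949), with a 95% interval between -0.59 and 0.50, and its sign turned without tunicamycin 4 (0.015), control 2 (0.071) or control 3 (0.076). Obp11, known as an antennal protein, had 100.3, 105 and 84.9 normalized reads in tunicamycin, against 97.0, 114 and 131 in controls 1, 2 and 3. Its 6 samples lay within 1.55-fold of each other, and the log2 difference was -0.23 (SE 0.20; limma adjusted p = 0.611; 95% interval between -0.69 and 0.22). The limma 95% intervals of Obp10, Obp11 and CSP2 (between -0.40 and 0.90) do not include a 2-fold change in either direction. Those of CSP3, Obp9 and Obp12 do. These intervals draw the spread of each gene toward that of other genes (7.29 degrees of freedom). CSP2 varied within groups more than most genes (log2 SD 0.41), so its interval leans on this. Intervals from the spread of a gene alone were not made. In the reference Obp11 overlaps LOC725048, which had between 792 and 1151 normalized reads in tunicamycin and between 997 and 1060 in controls. Reads of Obp11 may thus be shared with it, or be left uncounted.

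**Figure D2:**
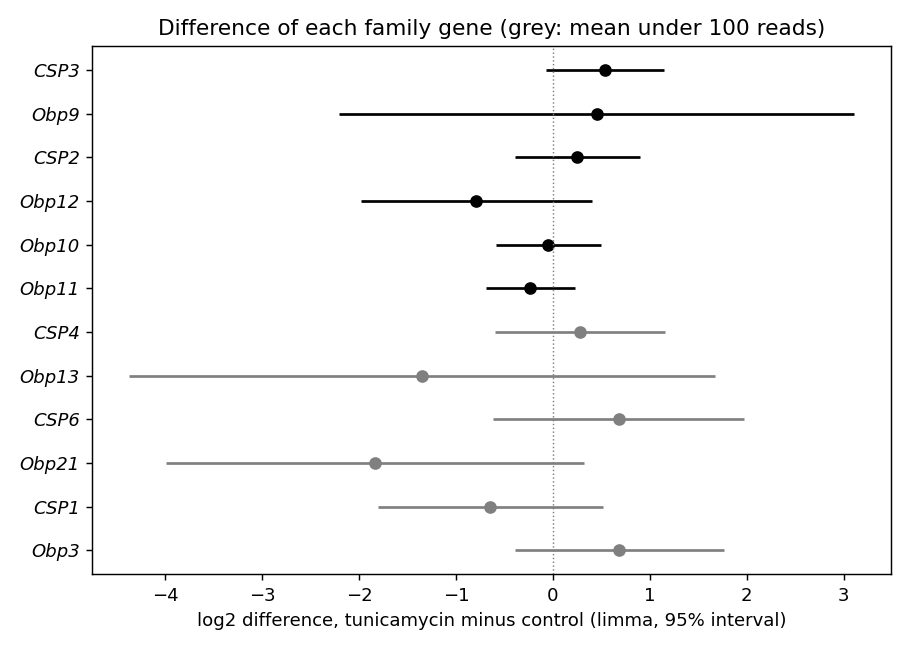
Log2 difference, tunicamycin minus control (x axis), of the 12 family genes, as points with limma 95% intervals; black marks the 6 members and grey the rows with a mean under 100 normalized reads. All 12 intervals include 0, and those of Obp9, Obp13 and Obp21 are the widest.

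The members differed from each other in how far samples of the same group lay apart. On the log2 scale the SD within groups was 1.87 for Obp9, 0.81 for Obp12, 0.41 for CSP2, 0.36 for CSP3, 0.31 for Obp10 and 0.19 for Obp11. The median over the 7435 genes with a mean of at least 100 was 0.20. Of these genes, 99.6% varied no more than Obp9 and 97.4% no more than Obp12, against 46.9% for Obp11.

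The spread between samples was set beside the noise of read counting, which replicates exceeded over genes in general. For Obp9 the coefficient of variation (CV, the SD over the mean) was 119% in tunicamycin and 110.5% in controls, while counting alone gives 2.72% and 3.44% at these reads. For CSP3 it was 25.1% in tunicamycin and 21.4% in controls, where counting gives 0.487% and 0.574%. CSP2 had a CV of 4.06% in tunicamycin, under the 5.86% from counting, and 34.9% in controls, over the 6.03%. In that group control 1 was the sample that stood apart. Obp11 was near counting noise in tunicamycin, at 10.8% with 10.3% from counting, and above it in controls, at 14.9% with 9.19%.

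**Figure D3:**
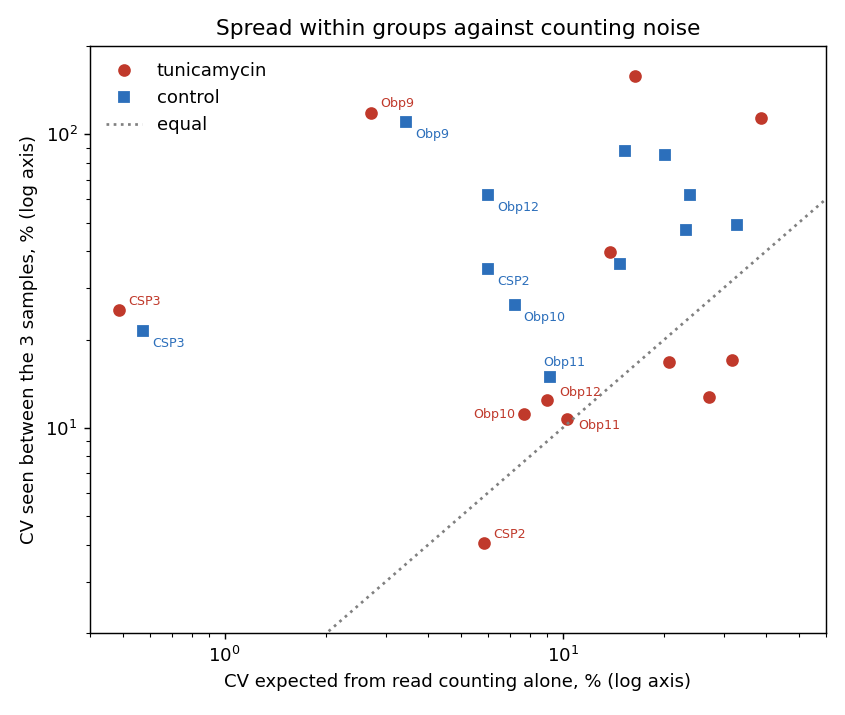
CV between the 3 samples of a group (y axis, log scale) against the CV that read counting alone would give (x axis, log scale) for the 12 family genes in tunicamycin (red circles) and control (blue squares); members are named and the dotted line marks equality. Obp9 and CSP3 lie far above the line in both groups, while CSP2, Obp10, Obp11 and Obp12 lie close to it in tunicamycin.

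The 6 family rows under the level of the rule were CSP4, Obp13, CSP6, Obp21, CSP1 and Obp3, with mean values between 11.5 and 49.2 normalized reads. None passed in limma or edgeR, and 0 had an unadjusted limma p under 0.05. DESeq2 gave an adjusted p to CSP4, Obp13 and CSP6 alone, and none of these passed. Obp13 had 3.27, 111 and 3.77 normalized reads in tunicamycin samples 2, 3 and 4, against 84.0, 26.1 and 15.5 in controls 1, 2 and 3. Its high samples, tunicamycin 3 and control 1, came from different tables and groups. Obp21, at the other end of the same run of Obp genes in the reference, had 1.09, 15.9 and 3.77 in tunicamycin against 7.999, 16.8 and 46.6 in controls (log2 difference -1.83, SE 0.92; limma adjusted p = 0.390). The 3 chemosensory rows CSP4, CSP6 and CSP1 had log2 differences of 0.28, 0.68 and -0.64, with SEs of 0.37, 0.55 and 0.49, and Obp3 was at 0.68 (SE 0.46). With 1 sample left out CSP6 ran from 0.085 (without control 3) to 1.10 (without control 1), and CSP1 from -1.10 (without control 2) to -0.38 (without control 3). The reference table lists 24 genes of these families by symbol, 19 Obp and 5 CSP, and the 12 without a row were not analysed here.

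Genes beside the members on the chromosome were also examined, after the members' values were seen. LOC100578238, next to Obp12 and not overlapping it in the reference, had 211, 267 and 157 normalized reads in tunicamycin samples 2, 3 and 4, against 128, 453 and 325 in controls 1, 2 and 3. It too was lowest in control 1 and highest in controls 2 and 3. After each gene was centred on its own mean, the root mean square (RMS) difference between its log2 profile and that of Obp12 was 0.27, and 2 of the 7434 other genes with a mean of at least 100 were closer. LOC102653922, on the other side, had 801, 2663 and 1377 in tunicamycin and 730, 3665 and 1914 in controls, with an RMS difference of 0.53 and 149 genes closer. Neither neighbour passed in limma (adjusted p = 0.743 and 0.877).

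**Figure D4:**
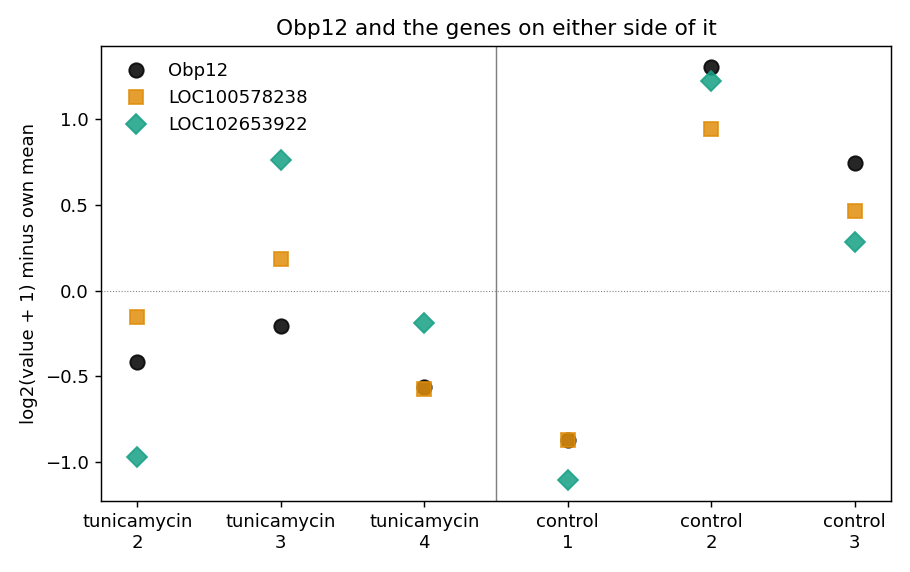
Log2(value + 1) minus the gene's own mean over the 6 samples (y axis) for Obp12 and its neighbours LOC100578238 and LOC102653922, in tunicamycin samples (left of the line) and controls (right). All 3 genes are lowest in control 1 and highest in control 2.

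The neighbours of the other members ranged widely in how alike they were. LOC724561, which lies between CSP3 and CSP4, had 179.9, 171 and 235 normalized reads in tunicamycin and 135, 149 and 86.4 in controls, lowest in control 3 and highest in tunicamycin 4, as was CSP3. Its RMS difference from CSP3 was 0.16, with 12 genes closer, while LOC102656134 on the other side of CSP3 had 0.48, with 4407 closer. Adar, the RNA-editing adenosine deaminase next to Obp9, was at 11458, 3266 and 5039.9 normalized reads in tunicamycin and 4748, 3466 and 5363 in controls. It shared the high value in tunicamycin 2 with Obp9 but not the one in control 1, and its RMS difference was 1.11, with 36 genes closer. LOC725091 beside CSP2 had an RMS difference of 0.43, with 3717 genes closer. Obp10 and Obp11 differed by an RMS of 0.190, and 481 genes were closer to Obp10 than Obp11 was. LOC552275, on the other side of Obp10, was more like it, at 0.163 with 256 genes closer. For Obp11, the overlapping LOC725048 was at 0.186 with 1133 genes closer, and Obp10 had 1212 genes closer.

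Among 218 genes with a symbol and a mean of at least 100 normalized reads, those with the profile most like that of CSP3 over the 6 samples were Mir9865, a microRNA gene, and Chmp1, an endosomal sorting (ESCRT) gene, with RMS differences of 0.15 and 0.18. For CSP2 they were NLG-3, a neuroligin, and nAChRa3, an acetylcholine receptor subunit, each at 0.14. For Obp12 they were PGRP-S3, a peptidoglycan recognition protein, at 0.26 and GlnS, glutamine synthetase, at 0.43. PGRP-S3 had 205, 307 and 284 normalized reads in tunicamycin and 236, 716 and 500.2 in controls 1, 2 and 3. Obp9 had no close match: the nearest were pHCl, a pH-sensitive chloride channel, at 0.84 and Y-f, of the yellow family, at 0.94.

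Of the receptors and carriers of hydrophobic ligands looked for by name, 7 had a row, and 0 of the 7 passed in limma in either direction. The odorant receptors Or50, Or35 and Or30 and the gustatory receptor Gr10 had between 19.0 and 280.1 normalized reads in tunicamycin and between 32.0 and 262 in controls. Fabp, a fatty acid-binding protein of the cytosol, was at 7628, 11278 and 13133 in tunicamycin and 6303, 11478 and 9846 in controls (log2 difference 0.22, SE 0.28; limma adjusted p = 0.745). Jhe, juvenile hormone esterase, was the 1 gene of the 7 with an unadjusted p under 0.05 (log2 difference -1.17, SE 0.29; limma adjusted p = 0.128). Vg, the yolk and lipid carrier vitellogenin, was at 14.2, 69.8 and 9.43 in tunicamycin and 5.999, 95.9 and 14.6 in controls.

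Markers of other tissues were summed beside the members. The 6 measured of 8 fat body and haemolymph markers came to between 412 and 478 normalized reads in tunicamycin. In controls they came to between 519.6 and 841, highest in control 1. The single markers went different ways in that sample. Hex70a, Def1 and Apid1 were at their highest there (297, 296 and 104). Vg and Hex70c were at their lowest (5.999 and 24.0), and Hex110, at 114, was neither. The 6 of 9 muscle markers ran from 6369 to 8468 in tunicamycin and from 4979 to 8362 in controls, lowest in control 1. Control 1 was also the lowest sample of CSP2, Obp12 and Obp10. This was not particular to muscle. The royal jelly protein, the neuronal and enteroendocrine, and the cuticle and trachea sums were lowest in control 1 as well. The 3 of 9 royal jelly protein markers ran from 1905 to 2748 in tunicamycin and from 1529 to 2984 in controls, the 3 of 8 neuronal and enteroendocrine ones from 709 to 1118 and from 619 to 749.8, and the 1 of 3 haemocyte markers from 42.5 to 67.9 and from 59.6 to 71.9. In the fat body, muscle, royal jelly protein, neuronal and haemocyte lists 0 genes passed in limma. Their part in the members' values was not tested.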

How the data were processed

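The authors deposited a normalized signal for each gene: gene read counts divided by 1 size factor per sample. This was read from the values, since in each of the 6 columns 100% of the values were a whole number of reads, each with the same worth (tolerance 0.001 of a read). For control 1, where a read is worth nearly 1, the larger values set it. All 6 samples had the same median ratio to the geometric mean (1.003), so the 3 deposited tables share a scaling. Trimmomatic 0.36, STAR, Subread and DESeq2 were used, per the submitters' processing notes. Not given in the sources used here are their settings, the genome build and any use of strand in counting. It is therefore not known whether overlapping, antisense and near-identical genes share reads or lose them.

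Differences were tested by limma-trend on log2(value + 1), with no term but the group, over 10013 genes in 6 samples and with Benjamini-Hochberg adjustment (limma version 3.58.1 in R 4.3.3). The filter, a mean of at least 1, removed 0 genes. The limma-trend log2 differences keep the added 1, save in the alternative with 0.1. For the family rows under the level of the rule they were smaller with 1 added than with 0.1, as for Obp13 (-1.35 against -1.52). In the edgeR and DESeq2 fits Obp13 was at -0.098 and -0.090. The added 1 does not make this gap, since limma with 0.1 lay further from those values. The limma-voom fit on recovered reads, also on logs, gave -1.45. The group means of Obp13, not logged, were close, at 39.3 normalized reads in tunicamycin and 41.9 in controls. Alternatives on the recovered reads were DESeq2 1.42.0, limma-voom and the quasi-likelihood test of edgeR 4.0.16. The fits were tested on simulated data first. The members, lists and tests were chosen with earlier results of these data known. Named genes were all family rows, the 2 symbols most like the 3 members of highest level and the 3 of largest difference, and the fixed lists. The planned order by reads per coding length was not made, since no coding lengths were used here. Genes and neighbours were matched to Amel_HAv3.1, where all 12 family rows had a match. Nothing in the labels says whether replicates are from different colonies or cages. The p-values then cover only how these samples vary, perhaps for technical reasons. Replicates differed by more than counting noise (chi-square per degree of freedom between 45.0 and 178.1 over genes). CVs from counting cover counting error only.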

Additional observations from a re-analysis of the deposited data

How the results depend on the processing

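The number of members past the threshold was 0 under the main settings and under all alternatives except the fit without control 1, which called 1 (Obp12); leaving out 1 sample thus gave 0 to 1. Of 102 alternative values of the 6 members, 8 changed sign and 1 gained a call. With 1 sample left out, the log2 difference ran from -0.62 to 1.53 for Obp9, from -0.084 to 0.43 for CSP2, from -1.42 to -0.33 for Obp12, from -0.29 to 0.076 for Obp10, and from -0.022 to 0.55 for CSP4. For CSP3 it ran from 0.35 without control 3 to 0.74 without tunicamycin 3, and for Obp11 from -0.35 without control 1 to -0.13 without control 3. CSP2 was at -0.050 with the replicate block by shared number and at -0.11 without both samples of the first table, an alternative added after seeing the data; there CSP4 was at -0.12 and Obp13 at 0.13. CSP4 was at -0.022 without tunicamycin 2, and Obp13 at 0.048 with the block by shared number. No member changed sign with 0.1 added before the log, a filter at 50 reads, no filter, edgeR, DESeq2, limma-voom, or TMM and upper-quartile scaling.

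Over all genes limma called 113. DESeq2 called 518, limma with a replicate block for each deposited table called 44, and with a replicate block by shared number (4 samples) it called 4. Leaving out 1 sample gave 20 to 202, the highest without control 1; without controls 2 and 3 it gave 23 and 20, and without tunicamycin 2, 3 and 4 it gave 57, 99 and 32. The cause was not tested. Deviations from group means correlated at -0.17 and -0.081 for samples that share a number, and at 0.085, 0.20 and 0.022 within tables, so the numbers were not taken to pair the samples, and neither block changed a member's call. At a mean of at least 200 reads there would be 3 members, at 50 still 6, and by tunicamycin samples alone 5. The order by coding length was not run. With 3 samples a group, the 95% intervals of CSP3, Obp9 and Obp12 still allow a 2-fold difference.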
